A study of Sus scrofa with 44 samples.

Results

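The genes described here act where myoblasts, the precursors of skeletal muscle fibres, adhere to each other and fuse. They are 8 genes chosen by name out of the 22427 genes with a value in the files: MYMK, CDH15, CDH2, NCAM1, JAM2, JAM3, DOCK1 and ITGB1. Myoblasts first recognise each other through cadherins and receptors of the immunoglobulin family, then anchor to the surrounding matrix through integrins. Their actin cortex is rearranged through Rac signalling, and their membranes are merged by dedicated fusion proteins. Fusion builds the fetal muscle fibres, while unfused cells remain as the progenitors of later growth.

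The study took longissimus dorsi, the long back muscle, from pig fetuses at 33, 40, 50, 60, 70 and 95 days post coitus, here called E33 to E95. It asked about N6-methyladenosine (m6A), a methyl mark on RNA, during prenatal muscle formation. At each stage 3 input libraries of rRNA-depleted RNA and 3 libraries of RNA precipitated with an m6A antibody were made. PK15, a pig kidney cell line labelled adult, was profiled from 2 kinds of RNA, polyA and rRNA-depleted, with 2 input and 2 precipitated libraries of each. No genotype, treatment, breed or sex entered the groups used here, and nothing in the labels says that replicates came from separate animals. The p-values below therefore measure the spread between these libraries, which may be technical. Levels are TPM, or transcript abundances per length scaled to the same total in each library, in the 18 muscle input libraries, and m6A is described by 1 peak list per stage and 1 per PK15 preparation, without replicates.

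All 8 genes were in the files, and all averaged at least 1 TPM, so each was tested. The gene ENSSSCG00000032395 took 37.4% to 72.4% of a library's TPM, so TPM were divided by a library factor before testing, which gives scaled TPM. E40 replicate 2 and E50 replicate 3 stood apart, with 17.3% and 14.4% of TPM in ENSSSCG00000032599 against 0.227% to 1.19% in the other libraries, and with factors of 0.461 and 0.313. Without scaling the median gene fell by 1.02 on the log2 scale from E33 to E95, and after scaling the median log2 change was -0.02. Depth in reads is unknown. The myoblast regulators PAX7, MYF5, MYOD1 and MYOG were detected in all stages, with summed scaled TPM of 315 to 359 at E33 and 306 to 418 at E95. Within that sum MYF5 fell from a mean of 70.6 to 26.8 (limma adjusted p 0.000415) and MYOD1 rose from 122 to 214 (0.00152), although the MYOD1 change was -0.43 on the log2 scale as deposited. A summed level of 5 genes of mature fibres (ACTA1, CKM, DES, TNNT3, TNNI2) rose from 776 to 938 at E33 to between 14545 and 22492 at E95, and all 5 were called higher by limma. In tissue RNA of this kind, fewer cells of a type and less RNA per cell cannot be told apart.

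The peaks of MYMK, CDH15, JAM2 and JAM3 lay at the stop codon or in the 3′ UTR, those of DOCK1 and ITGB1 in muscle lay in coding exons, and NCAM1 had both kinds. The sequences that follow show the places on which the peak results turn. They were read from the RefSeq assembly Sscrofa11.1, the build named in the submitters' processing notes, on the strand of the gene. Capitals mark GGAC and GGACT, the core of the sequence in which m6A is usually found. In the short stretches around a copy only that copy is in capitals. The CDH15 3′ UTR stretch holds a further GGAC in lower case. MYMK (chromosome 1, minus strand) had its peak in the 3′ UTR of its last exon, at chr1:273101799-273102038 in the E50 list. The 2 stretches around its GGAC copies, at chr1:273101942-273101970 and chr1:273101873-273101901, read as follows.
MYMK first copy: aaacatcctgatGGACaggtgtgtctgca
MYMK second copy: ccccgcttccccGGACagccccatcccag

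CDH15 (chromosome 6, minus strand) had its peak at the end of the coding sequence and in the 3′ UTR, at chr6:636456-636726 in the E70 list. This peak held 7 GGAC copies, 3 of them GGACT, on 271 bases. The coding end at chr6:636637-636726, which closes with the stop codon, holds 2 of the GGACT copies, and a further one lies in the 3′ UTR at chr6:636518-636546.
CDH15 coding end: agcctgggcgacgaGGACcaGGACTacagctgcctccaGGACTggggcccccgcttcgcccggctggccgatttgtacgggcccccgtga
CDH15 3′ UTR copy: agtggacacgctGGACTgggctgtgtggc

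NCAM1 (chromosome 9, plus strand) had a peak in every muscle list over 3 coding exons, exons 21 to 23 of 24 in the RefSeq transcript XM_021062793.1. All bases of this site are held by 13 of the 41 coding RefSeq transcripts of NCAM1, so the whole site belongs to some isoforms only. How much of it the other transcripts hold was not counted. The parts within the E40 peak lie at chr9:40952613-40952696, chr9:40954089-40954205 and chr9:40955170-40955269, and each holds 1 GGAC.
NCAM1 exon 21 part: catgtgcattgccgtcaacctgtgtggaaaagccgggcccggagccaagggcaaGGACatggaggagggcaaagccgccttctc
NCAM1 exon 22 part: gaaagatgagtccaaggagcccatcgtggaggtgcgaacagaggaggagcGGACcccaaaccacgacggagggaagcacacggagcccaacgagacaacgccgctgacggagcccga
NCAM1 exon 23 part: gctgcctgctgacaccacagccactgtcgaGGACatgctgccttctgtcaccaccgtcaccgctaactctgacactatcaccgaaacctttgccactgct

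JAM3 (chromosome 9, plus strand) had a peak at or just behind its stop codon in every muscle list, the E40 peak lying wholly in the 3′ UTR at chr9:60709478-60709598. The last 36 coding bases at chr9:60709416-60709451 hold no GGAC, and the 3′ UTR behind them holds 3 copies, of which those at chr9:60709466-60709494 and chr9:60709516-60709544 are shown. JAM2 (chromosome 13, plus strand) had its peak further into the 3′ UTR, with 1 GGAC at chr13:189274640-189274668.
JAM3 coding end: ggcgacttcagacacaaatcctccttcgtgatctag
JAM3 first 3′ UTR copy: aggcacacatgcGGACatctccctgggga
JAM3 later 3′ UTR copy: tgagggggcgctGGACatgtgcacaaaag
JAM2 3′ UTR copy: agtcagggatatGGACgggaagacaaata

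DOCK1 (chromosome 14, plus strand) and ITGB1 (chromosome 10, minus strand) had their muscle peaks in coding exons. The DOCK1 part shown lies in exon 52 of 55 at chr14:136734384-136734527, with 4 GGAC copies close together. The ITGB1 part lies in exon 4 of 15 at chr10:56099916-56100065, with 1 copy.
DOCK1 exon 52 part: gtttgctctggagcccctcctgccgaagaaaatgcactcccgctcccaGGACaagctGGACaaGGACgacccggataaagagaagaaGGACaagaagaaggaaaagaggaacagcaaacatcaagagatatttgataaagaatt
ITGB1 exon 4 part: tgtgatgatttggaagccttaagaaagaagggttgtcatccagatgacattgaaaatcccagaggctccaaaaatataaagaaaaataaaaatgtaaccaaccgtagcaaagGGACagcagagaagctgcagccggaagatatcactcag

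Seen over the whole set, the levels of these genes followed different courses. Of the 8 members 7 were called by the F test over the 6 stages (limma, adjusted p under 0.05 with Benjamini-Hochberg adjustment over 13334 genes), where 47.0% of all genes tested were called. MYMK was not called, with an adjusted p of 0.0637. It was called with quantile normalization (0.00939) and when TPM were rescaled with both of the most abundant genes left out (0.000459). Between the first and the last stage 6 members were called, CDH2, NCAM1, DOCK1, JAM3 and MYMK lower and JAM2 higher at E95, where 46.2% of all genes were called (24.5% lower). The median log2 change of the 8 members was -0.55 against -0.02 for all genes tested. With TPM as deposited 7 members were called and all were lower, at a median of -1.70 against -1.02, and JAM2 was the member not called. Of all genes 2898 were called higher and 3263 lower after scaling, and 352 and 6109 as deposited.

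**Figure D1:**
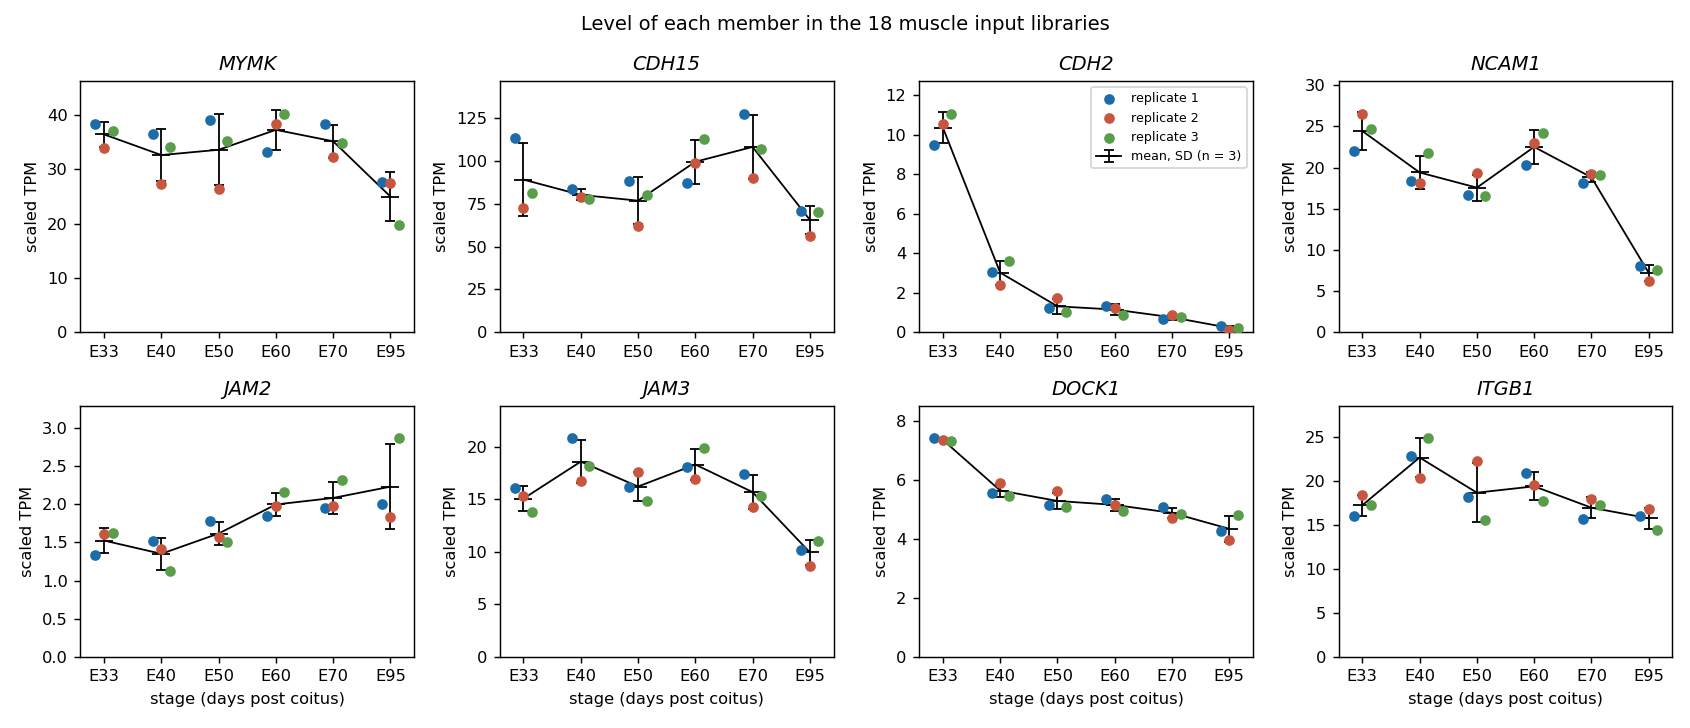
Scaled TPM of the 8 members (y axis, linear from 0) in the 18 muscle input libraries by stage (x axis). Points are libraries coloured by replicate number, and black lines join stage means with SD (n = 3 per stage). CDH2 is at 9.49 to 11.1 at E33 and at 0.129 to 0.328 at E95, and NCAM1 and JAM3 are lowest at E95 with no overlap with any other stage.

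MYMK encodes myomaker, the membrane protein that myoblasts need to fuse. It lay at 38.3, 34.0 and 37.0 scaled TPM at E33 and at 27.7, 27.4 and 19.8 at E95. The 3 E95 libraries were all below the 3 E33 libraries, while every pair of neighbours in the order of the stages overlapped. The order from the highest mean was E60, E33, E70, E50, E40 and E95, and the highest stage mean was 1.49 times the lowest. From E33 to E95 the log2 change was -0.54 (SE 0.16, limma adjusted p 0.0125). This call rested on E95 replicate 3, without which the log2 change was -0.39 and the adjusted p 0.0644. From E70 to E95 the log2 change was -0.49 (SE 0.16, limma adjusted p 0.0589), which did not pass the test. That step was called at -0.62 with quantile normalization (adjusted p 0.0137), at -0.76 after both of the most abundant genes were left out (0.00728), and without E40 replicate 2 (0.0460) or E50 replicate 2 (0.0333). MYMK kept a level between 19.8 and 40.2 scaled TPM in all 18 libraries.

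CDH15, or M-cadherin, is the cadherin of myoblasts and satellite cells. It had the highest level per length among the members, with a median over libraries of 82.7 scaled TPM. The E70 libraries had 128, 90.4 and 107, and the E95 libraries had 70.6, 56.4 and 70.0. These groups did not overlap, and the mean was 1.65 times higher at E70. The log2 change from E70 to E95 was -0.71 (SE 0.18, limma adjusted p 0.0176). The call was lost without E70 replicate 1 (adjusted p 0.0844), without E70 replicate 3 (0.0513) and without E95 replicate 2 (0.0827), and as deposited (0.499). PAX7, a factor of muscle progenitors, fell in the same step from a mean of 19.1 to 13.4 scaled TPM (limma adjusted p 0.0128). As deposited that fall was not called (adjusted p 0.619). MYOD1 rose in this step from a mean of 132 to 214 (limma adjusted p 0.0179), not called as deposited (0.879). MYF5 and MYOG did not pass limma's test (adjusted p 0.262 and 0.209). The part of these regulators in the CDH15 and NCAM1 results was not tested. At E33 the CDH15 libraries spread from 72.6 to 114, and the change from E33 to E95 was -0.42 (SE 0.18, limma adjusted p 0.0735), not called. That change was called under every other scaling tried. It was -1.64 as deposited (adjusted p 0.0125) and -0.63 with quantile normalization (0.0101). When TPM were rescaled with both of the most abundant genes left out it was -1.055 (0.000419). It was also called without E33 replicate 2 (0.0348). All neighbours in the order E70, E60, E33, E40, E50 and E95 overlapped.

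CDH2, or N-cadherin, joins cells of many embryonic tissues, neurons and early myoblasts among them. It showed the steepest course of the 8 genes. Its libraries were at 9.49, 10.5 and 11.1 scaled TPM at E33, at 3.04, 2.40 and 3.61 at E40, and at 1.21, 1.71 and 0.999 at E50. The fall continued with 1.33, 1.25 and 0.849 at E60, 0.642, 0.865 and 0.747 at E70, and 0.328, 0.129 and 0.200 at E95. The order of the stage means was the order of age, and E33, E40 and E50 did not overlap with each other. E50 overlapped with E60 and E60 with E70, while E70 and E95 were apart. The mean at E33 was 47.3 times the mean at E95, and the log2(scaled TPM + 1) change was -3.22 (SE 0.14, limma adjusted p 4.4e-10), a scale that understates a change between low levels. The first step, E33 to E40, gave -1.51 (SE 0.14, limma adjusted p 8.13e-06).

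The later steps of CDH2 were smaller. From E40 to E50 CDH2 changed by -0.80 on the log2 scale (SE 0.14, limma adjusted p 0.0132). Without E40 replicate 3, E50 replicate 1 or E50 replicate 3 the adjusted p of that step was 0.0615, 0.0646 and 0.0696, and without both libraries that stood apart it was 0.0594. It was 0.769 as deposited and 0.276 with the libraries of both stages alone. From E70 to E95 the change was -0.52 (SE 0.14, limma adjusted p 0.0250). That call was lost without E70 replicate 2 (0.0930), E70 replicate 3 (0.0653), E95 replicate 2 (0.0872) or E95 replicate 3 (0.0536), with a pseudocount of 5 (0.155) and as deposited (0.643).

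Markers of neurons moved with CDH2. Of the 7 markers NEFM was not matched, and the other 6 summed to 105 to 135 scaled TPM at E33, 21.7 to 27.3 at E40 and 2.91 to 4.88 at E95. NEFL, a neurofilament subunit, made up most of this sum, with 94.2, 106 and 117 at E33 and 3.33, 4.36 and 2.23 at E95. STMN2, a microtubule regulator of axons, fell from 8.36, 10.9 and 9.84 at E33 and was listed at 0 in 2 of the 3 E95 libraries, with 0.0372 in the other one. The tubulin TUBB3 had 0.601, 4.23 and 4.95 at E33. NEFL, STMN2 and TUBB3 were the 3 neuron markers tested, and all 3 were called lower in E40 against E33 and in E95 against E33 under every scaling tried. Their part in the CDH2 result was not tested.

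**Figure D2:**
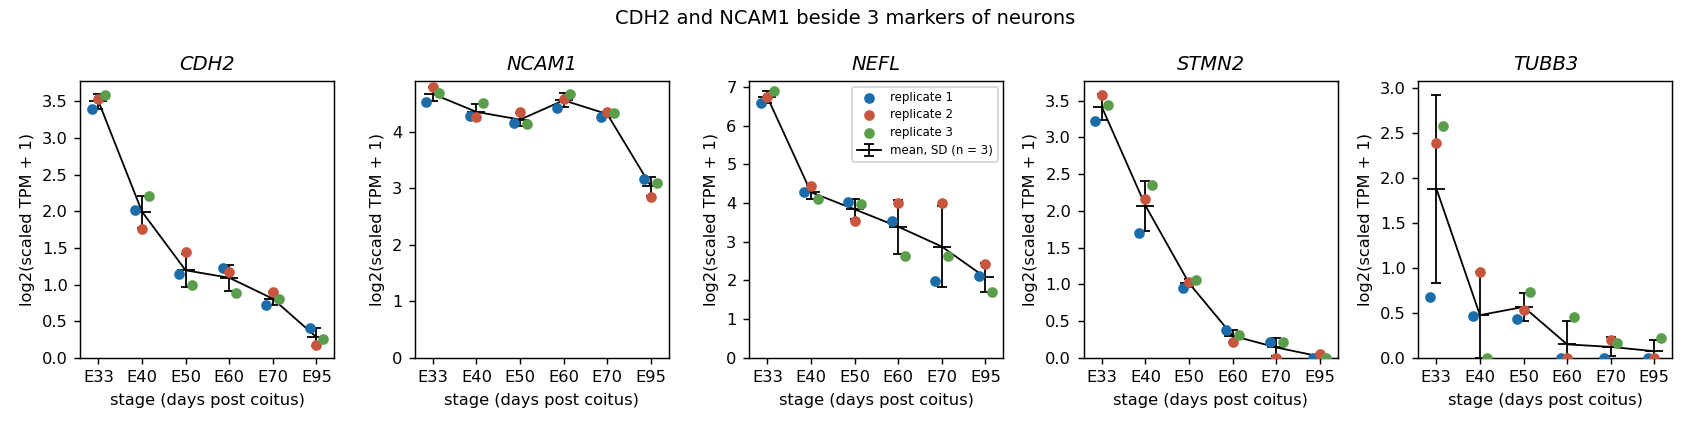
Log2(scaled TPM + 1) of CDH2, NCAM1 and the neuron markers NEFL, STMN2 and TUBB3 (y axes from 0, each with its own range) by stage (x axis). Points are libraries and lines join stage means with SD (n = 3). CDH2 and the 3 markers have their highest means at E33 and fall by E40. NCAM1 also has its highest mean at E33, with 24.4 scaled TPM against 19.4 at E40, and its libraries lie between 16.6 and 26.5 until E70.

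NCAM1, the neural cell adhesion molecule, sits on fusing myoblasts and young fibres as well as on neurons and Schwann cells. Its stage means lay between 17.6 and 24.4 scaled TPM from E33 to E70 and at 7.22 at E95. The E70 libraries had 18.1, 19.3 and 19.1 scaled TPM and the E95 libraries 7.99, 6.16 and 7.50. The lowest library of any earlier stage was at 16.6, at E50, so E95 lay apart from all of them. The log2 change from E70 to E95 was -1.28 (SE 0.11, limma adjusted p 7.04e-06), and the mean was 2.61 times higher at E70. As deposited the step was -1.72 with an adjusted p of 0.219. From E33, where the libraries had 22.0, 26.5 and 24.7, the change to E95 was -1.63 (SE 0.11, limma adjusted p 2.4e-08). The step from E33 to E40 missed the threshold at -0.32 (SE 0.11, limma adjusted p 0.0538). It was called in 7 of 28 alternatives, and the E40 libraries, at 18.1 to 21.7, lay below those of E33. The order of the means was E33, E60, E40, E70, E50 and E95, of which all neighbours but E50 and E95 overlapped. From E70 to E95 the neuron markers NEFL, STMN2 and TUBB3 did not pass limma's test (adjusted p 0.245, 0.665 and 0.965), and the neuron sum was 3.57 to 15.8 at E70. Of the Schwann cell markers, ERBB3, a neuregulin receptor, fell in that step from a mean of 49.4 scaled TPM (SD 3.36, n = 3) to 10.5 (SD 1.58, n = 3; limma adjusted p 2.49e-07). SOX10, a transcription factor of that lineage, had 5.90 (SD 0.806, n = 3) and 6.35 (SD 0.731, n = 3) and did not pass the test (limma adjusted p 0.668). Their part in the NCAM1 result was not tested.

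JAM2 and JAM3 are junctional adhesion molecules that bind each other across cells, a contact needed for myoblast fusion in zebrafish. JAM3 stayed between 13.8 and 20.8 scaled TPM from E33 to E70. At E70 its libraries had 17.4, 14.3 and 15.3, and at E95 they had 10.1, 8.64 and 11.1. E95 was apart from all other stages, which overlapped as neighbours in the order E40, E60, E50, E70 and E33. The log2 change was -0.61 from E70 (SE 0.11, limma adjusted p 0.00216) and -0.56 from E33 (SE 0.11, limma adjusted p 0.000867). The step from E70 was not called as deposited, with -1.07 and an adjusted p of 0.605.

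JAM2 was the lowest of the 8 genes from E33 to E40 and the one member called higher at E95. Its libraries had 1.34, 1.61 and 1.63 scaled TPM at E33 and 2.00, 1.83 and 2.86 at E95, with no overlap. The order of the means was E95, E70, E60, E50, E33 and E40, and E60 and E50 were the neighbours that lay apart. From E33 to E95 the log2 change was 0.34 (SE 0.12, limma adjusted p 0.0319). Its direction depended on the scaling, since it was -0.47 as deposited (adjusted p 0.267) and -0.08 when TPM were rescaled with both of the most abundant genes left out (adjusted p 0.724). The call was also lost without E33 replicate 1 (adjusted p 0.110), without E95 replicate 3 (0.154) and without both libraries that stood apart (0.0542). Endothelial cells carry JAM2 too, and their markers were also higher at E95 than at E33 after scaling. The sum of PECAM1, CDH5, KDR and TEK went from 16.3 to 20.8 scaled TPM at E33 to between 60.0 and 68.7 at E95, and CLDN5 was not matched. At E40 that sum was already 30.8 to 37.4, while JAM2's mean was 1.35 against 1.52 at E33. From E33 to E95 all 4 markers were called higher by limma after scaling. All 4 were also called higher when TPM were rescaled with both of the most abundant genes left out, where JAM2 was at -0.08. As deposited the smallest adjusted p among them was 0.0746, for PECAM1 with a log2 change of 0.93. Their part in the JAM2 result was not tested.

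DOCK1 opens the Rac switch for the actin changes of fusion. Its libraries agreed closely at E33, with 7.42, 7.37 and 7.32 scaled TPM, and had 5.58, 5.89 and 5.48 at E40. These groups were apart, and from E40 on every neighbouring stage overlapped in the order of age. At E95 the libraries had 4.27, 3.95 and 4.82. The log2 change from E33 to E40 was -0.33 (SE 0.07, limma adjusted p 0.00422), and from E33 to E95 it was -0.65 (SE 0.07, limma adjusted p 2.84e-06). As deposited the early step missed the threshold (adjusted p 0.142). The neuron markers NEFL, STMN2 and TUBB3 fell in the same step, and their part in the DOCK1 result was not tested.

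ITGB1 is the beta subunit shared by the integrins that anchor myoblasts to laminin and fibronectin. Its libraries were at 16.0, 18.4 and 17.3 scaled TPM at E33, at 22.8, 20.3 and 24.8 at E40, and at 16.0, 16.8 and 14.4 at E95. E40 was apart from E33, while E33 and E95 overlapped. The log2 change from E33 to E40 was 0.37 (SE 0.12, limma adjusted p 0.0398). As deposited it was -0.34 (adjusted p 0.652), and when TPM were rescaled with both of the most abundant genes left out it was 0.26 (adjusted p 0.261). It was lost without E33 replicate 1 (adjusted p 0.131), E33 replicate 3 (0.0963), E40 replicate 1 (0.106), E40 replicate 3 (0.151), E60 replicate 2 (0.0514) or E70 replicate 3 (0.0518). From E33 to E95 the change was -0.12 (SE 0.12, limma adjusted p 0.426), not called, while as deposited it was called at -1.30 (adjusted p 0.0448). It was also called, at -0.75, when TPM were rescaled with both of the most abundant genes left out (adjusted p 0.000694).

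Between neighbouring stages, most calls of members fell in the first and the last step, as did most calls over all genes. From E33 to E40, 3 of 8 were called (CDH2 and DOCK1 lower, ITGB1 higher), where 20.5% of all genes were called. As deposited 1 was called, CDH2, and the genes called higher and lower were 28 and 621 against 1404 and 1332 after scaling. From E40 to E50, 1 of 8 was called, CDH2, against 1.50% of all genes. From E50 to E60 limma called 0 of 8, with 1 at an unadjusted p under 0.05 (NCAM1, with a log2 change of 0.34), against 0.802% of all genes. From E60 to E70 limma called 0 of 8 again, with 1 at an unadjusted p under 0.05 (NCAM1, with a log2 change of -0.24), against 1.81%. From E70 to E95, 4 of 8 were called, CDH15, CDH2, NCAM1 and JAM3, all lower, against 13.3% of all genes (7.24% lower). As deposited 0 of 8 were called by limma in this last step, with 3 at an unadjusted p under 0.05. Adjacent comparisons share the libraries of the stage between them.

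**Figure D3:**
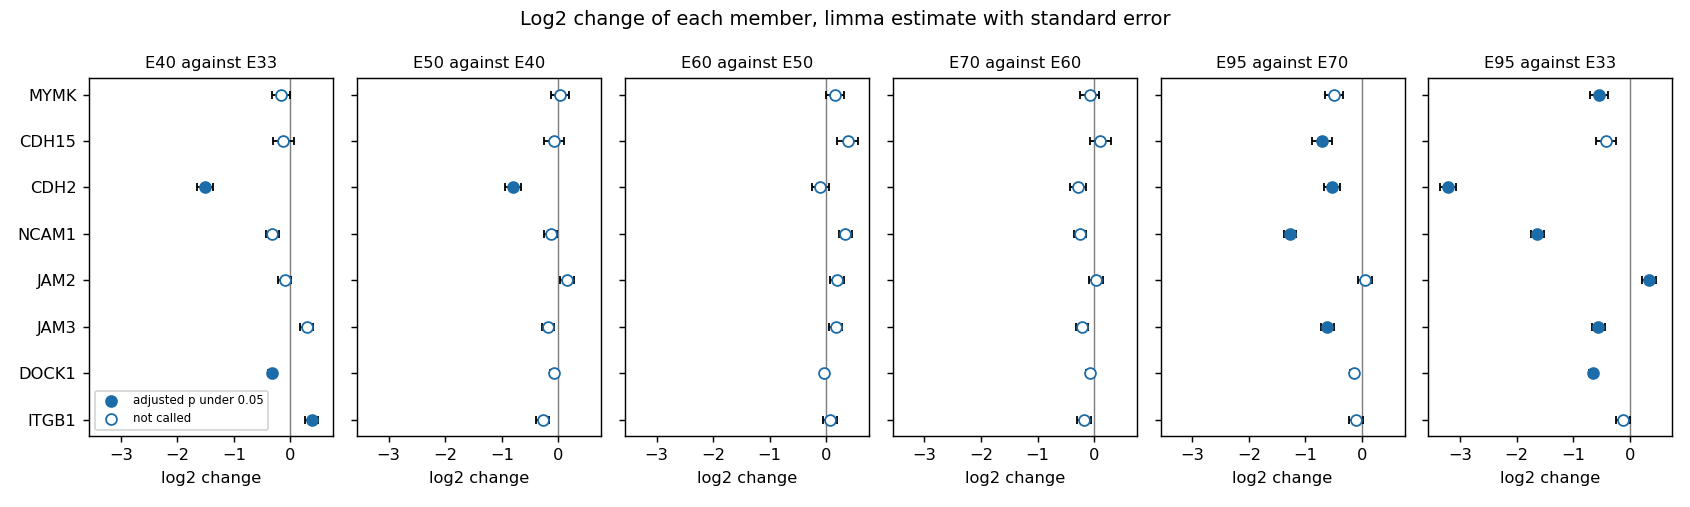
Log2 change of each member (x axis, limma estimate on log2(scaled TPM + 1) with its standard error) in the 5 steps between stages and from E33 to E95, 1 panel each. Filled points have an adjusted p under 0.05 and open points do not. Filled points stand in the panels that start at E33, in that from E40 to E50 and in that from E70 to E95, and the lowest is CDH2 at -3.22 from E33 to E95.

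Ratios of members within a library do not move with the library's scaling, apart from the pseudocount. The TPM ratio of CDH15 to CDH2, the 2 cadherins of the set, was 6.90 to 12.0 at E33, 104.5 to 199 at E70 and 216 to 437 at E95. The E95 ratios rest on CDH2 levels of 0.129 to 0.328 scaled TPM. With the pseudocount the rise from E70 to E95 was not seen. The log2 ratio was then 6.29, 5.62 and 5.95 at E70 and 5.75, 5.67 and 5.89 at E95. On the log2(scaled TPM + 1) scale this ratio differed by 2.80 between E95 and E33 (exact two-sided permutation test, p = 0.1, the smallest that 3 against 3 libraries allow, adjusted over the 3 ratios 0.15). JAM3 exceeded JAM2 by 8.50 to 12.0 times at E33 and by 3.86 to 5.07 times at E95. The ratio of JAM2 to JAM3 was thus higher at E95 by 0.90 on the log2 scale (exact permutation test, p = 0.1, adjusted 0.15). MYMK to CDH15 lay between 0.283 and 0.486 in all libraries, with a difference of -0.12 between E95 and E33 (exact permutation test, p = 0.7, adjusted 0.7). That difference changed sign, to 0.08, without E95 replicate 3.

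**Figure D4:**
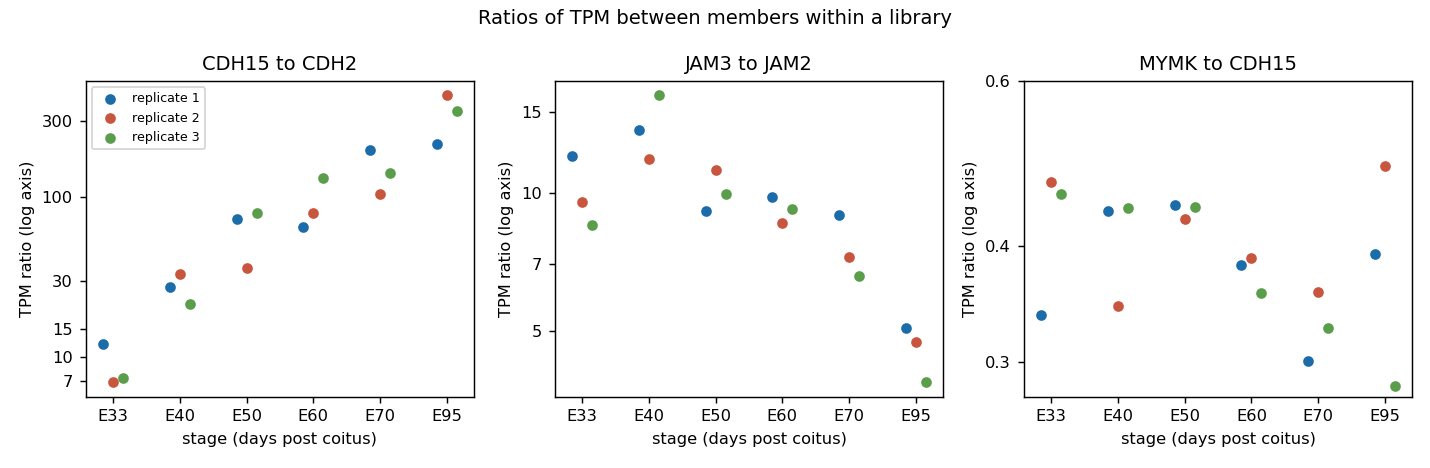
TPM ratios within each of the 18 input libraries (y axis, log scale) by stage (x axis), with 1 point per library. CDH15 to CDH2 goes from 6.90 at its lowest at E33 to 437 at its highest at E95, JAM3 to JAM2 is lowest at E95 in all 3 libraries, and MYMK to CDH15 stays between 0.283 and 0.486.

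Members differed in which of them varied together over the 18 libraries, which share their stages. On log2(scaled TPM + 1) Pearson's r between CDH2 and DOCK1 was 0.957, and between NCAM1 and JAM3 it was 0.824. MYMK had r of 0.702 with CDH15 and 0.701 with NCAM1. JAM2 ran against CDH2 at -0.63. Among 10752 genes with a symbol, the most like CDH2 were ST6GAL2 (r 0.987), REV1 (0.987) and EFNA5 (0.982). The most like DOCK1 were KIAA1217 (0.967), LGR4 (0.966) and BOC (0.964), and the most like NCAM1 were MTURN (0.955), NHSL1 (0.954) and NAV3 (0.953). CLCN5 (0.956), PABIR2 (0.941) and SLC15A2 (0.938) were nearest to JAM3. For CDH15 they were AGAP1 (0.914), DAGLA (0.817) and DNAH17 (0.816), and for MYMK DNPH1 (0.896), FZD9 (0.846) and GALT (0.846). JAM2 was nearest to RNF207 (0.877), PDE2A (0.867) and SIGLEC1 (0.858), and ITGB1 to RC3H2 (0.867), ANKMY2 (0.866) and CORO1C (0.859). These values describe the libraries and carry no test.

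Other genes of adhesion and fusion moved in both directions from E33 to E95. Of 52 genes listed, 48 were matched, MYMX, CAV3, ELMO1 and STAB2 being the others, and 42 were tested. In E95 against E33, 13 rose, 14 fell and 15 did not pass limma's test, with a median log2 change of -0.03 against -0.02 for all genes. As deposited 1 rose and 22 fell, when TPM were rescaled with both of the most abundant genes left out 5 rose and 27 fell, and with quantile normalization the counts were 13 and 16. Of all genes tested 21.7% were called higher and 24.5% lower in that comparison. In E40 against E33, 11 rose and 11 fell, where 10.5% of all genes were higher and 9.99% lower. As deposited those counts were 0 and 1, and with both of the most abundant genes left out they were 5 and 11. In E95 against E70, 2 rose and 10 fell, where 6.01% and 7.24% of all genes did. Here the counts were 0 and 0 as deposited, and 0 and 18 with both of those genes left out.

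Among the genes of fusion and membrane bending, 5 of 8 rose and 2 fell from E33 to E95, with a median log2 change of 0.87. As deposited 1 rose and 3 fell, and the median was -0.29. BIN1, which shapes the T-tubules of fibres, rose from 19.5 to 86.3 mean scaled TPM (log2 change 2.09, SE 0.12, limma adjusted p 6.51e-09). EHD2, a membrane ATPase, rose by 2.02. ADAM12 and MYOF, which act in myoblast fusion, fell by 1.39 and 0.74. Of the cadherin and catenin genes 3 of 5 fell and the others did not pass the test. CDH11, a cadherin of mesenchymal cells, fell by 2.40, and CTNNB1, which ties cadherins to the cytoskeleton, fell by 0.63.

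Of the immunoglobulin receptors 1 of 5 rose and 3 fell. BOC and CDON, co-receptors that promote myogenic differentiation, fell by 2.19 and 1.37, and VCAM1, a ligand of integrins, had 0.79. Of the integrins and their linkers 4 of 11 rose and 4 fell, against 0 and 5 as deposited and 1 and 6 with both of the most abundant genes left out. ITGA7, the alpha subunit of the laminin receptor of muscle fibres, rose from 12.0 to 56.4 mean scaled TPM (log2 change 2.15, SE 0.16, limma adjusted p 6.17e-08). FERMT2, a kindlin that activates integrins, had 0.62. ITGA5 and ITGA4, the alpha subunits of fibronectin receptors, fell by 1.30 and 1.02. ITGB1, the beta subunit they all pair with, was not called over the same interval after scaling. It was called lower as deposited and with both of the most abundant genes left out. Of the genes around DOCK1 and actin 3 of 13 rose and 2 fell, against 0 and 6 as deposited and 0 and 9 with both of the most abundant genes left out. DOCK5, a relative of DOCK1, and TRIO, another Rac activator, fell by 1.24 and 0.88. CDC42, a small GTPase, had 0.65 and NCKAP1, of the WAVE complex, had 0.42. The changes of VCAM1, FERMT2, CDC42 and NCKAP1 were positive after scaling and negative as deposited, and NCKAP1 was also negative, at -0.15, when TPM were rescaled with both of the most abundant genes left out.

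The peak lists, each the authors' own calls with their fold enrichment of precipitated over input RNA, held 41 peaks in the 8 members. Peaks that overlapped by at least 1 exonic base were joined into 14 sites, of which 12 had a peak in muscle. Members with a peak numbered 6 at E33, where 33.5% of genes with at least 1 TPM had one, and 3 at E40, where 22.9% had one. Each later list held peaks in 5 members, beside shares of such genes that, in the order of age, were 32.6%, 31.7%, 35.6% and 37.5%. CDH2 averaged 0.757 TPM as deposited at E70 and 0.154 at E95, so it is not among the genes behind the shares of those stages. In PK15 there was 1 in the polyA list, and there were 2 in the rRNA-depleted list, which held peaks in 37.7% and 23.7% of the 22427 genes. The E40 list was the shortest, with 4928 peaks against 7058 to 8685 in the other muscle lists. Of the 48 other adhesion and fusion genes 18 had a peak at E40, 21 to 24 at the other stages, and 29 and 24 in the polyA and rRNA-depleted lists of PK15. The part of list length in the members' counts was not tested, and 1 list per stage gives no test of a change in methylation.

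Of the 14 sites, 4 were present in all 6 muscle lists, and these belonged to NCAM1 (2 sites), JAM3 and ITGB1. JAM3's site had fold enrichments, from E33 to E95, of 4.14, 4.53, 4.62, 4.61, 5.82 and 4.50. NCAM1's site over exons 21 to 23 had 2.11, 4.37, 3.40, 2.32, 2.63 and 3.72 in the same order. Its site in the last exon, whose bases are all held by 26 of 41 coding transcripts, had 2.97 to 3.43. ITGB1's exon 4 site had 1.73 to 3.27 in muscle and 2.09 in PK15 with rRNA-depleted RNA, the one of the 4 that was also listed in PK15. JAM3 and NCAM1 had no peak in PK15, whose levels of these genes were not analysed here.

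The other sites came and went. MYMK had its 3′ UTR peak at E50 and E60 alone, with fold enrichments of 6.47 and 6.45, the highest among the members. Those were at the 69.8th and 82.9th percentile of their lists. Its TPM at E50 and E60 overlapped those of E33, E40 and E70, where no peak was listed. CDH15 had its peak at E33 (2.22), E60 (3.14) and E70 (3.23), and none at E40, E50 and E95. CDH2 had a peak at E33 alone, with 1.81 over 91 bases of the 5′ UTR at chr6:112628407-112628497, the stage at which its level was highest. JAM2 had its 3′ UTR peak at E70 (6.19) and E95 (3.99), on levels near 2 scaled TPM, and the authors' p was 1.2e-08 and 2.3e-05. DOCK1 had a peak in exons 48 and 49 at E33 (2.51) and another in exons 51 and 52 at E50 (1.64) and E95 (2.12). Peaks of PK15 alone were in DOCK1 exons 52 and 53 (1.94) and in the 5′ UTR of ITGB1 (4.95). With peaks below their list's median fold left out, 9 of 41 remained, in 4 sites, none of them in all 6 muscle lists. The median divides each list into nearly equal parts, so the members kept a smaller share of their peaks than the lists as a whole.

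**Figure D5:**
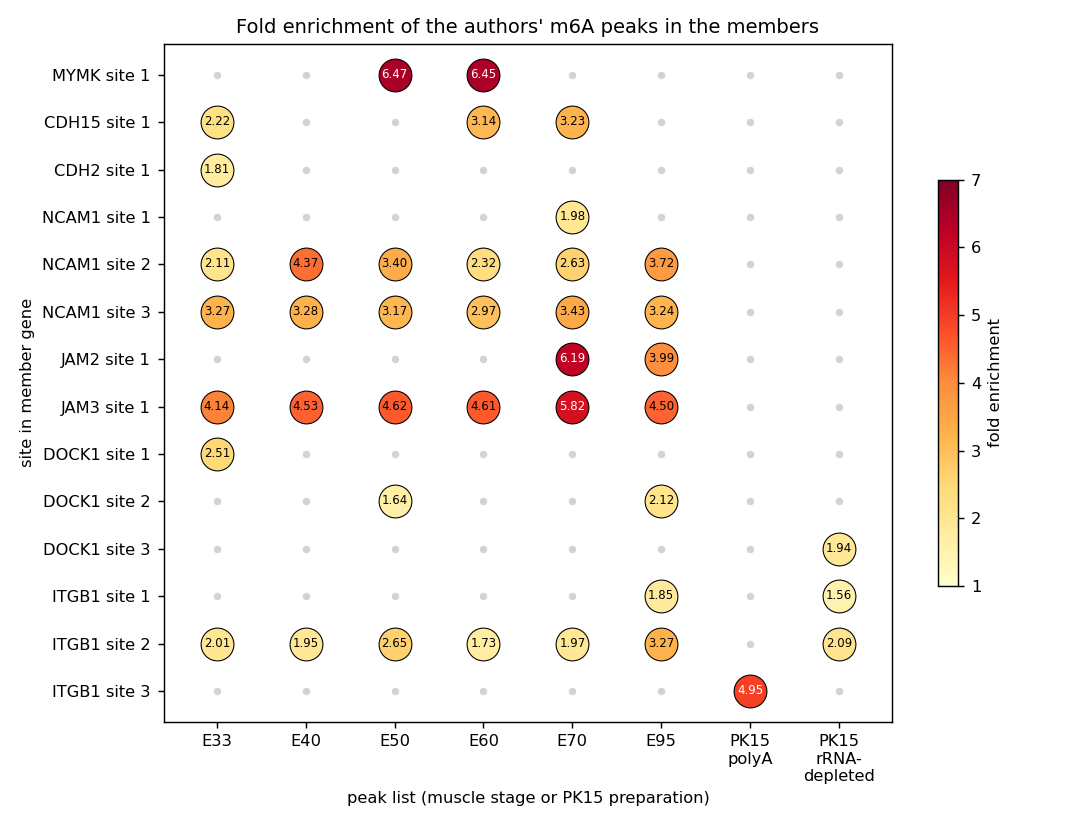
Fold enrichment of the authors' m6A peaks (number and colour) for each of the 14 sites of the members (y axis) in the 6 muscle lists and the 2 PK15 lists (x axis), with a grey dot where no peak was listed. Rows filled across all 6 muscle lists are NCAM1 sites 2 and 3, JAM3 site 1 and ITGB1 site 2, and MYMK is filled at E50 and E60.

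The letters of the peaks were compared with all peaks of 150 to 270 exonic bases. GGAC was searched on the transcript strand and, for comparison, on the other strand, and GGACT, which contains GGAC, likewise. Of all such peaks in the 8 lists 70.6% to 73.7% held GGAC on the transcript strand and 43.8% to 46.8% on the other one. GGACT was held by 26.4% to 31.2% and 15.8% to 17.5%. Taking for each site of the members its muscle peak of highest fold, or its PK15 peak where muscle had none, 11 of 14 held GGAC, with 28 copies in all against 9 on the other strand. The sites without one were CDH2's 5′ UTR peak, NCAM1's E70 peak at chr9:40942759-40945510 and the PK15 peak of DOCK1. GGACT was found in 1 site, that of CDH15. A match is a stretch of letters and not a measured methylated base, and these peaks differ in length from 60 to 450 bases.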

How the data were processed

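The members and all gene lists were chosen with earlier results of these data known. Reads were trimmed and aligned with Trimmomatic and HISAT2 to Sscrofa11.1, per the submitters' processing notes, and versions, the TPM tool and the peak caller are not given in the sources used here. The deposited TPM of 18 input libraries sum to 1000000 in each library over 22427 genes and carry no read depth. They were divided by median-ratio factors over the 7843 genes of at least 1 TPM in every library. Genes averaging 1 TPM or more were tested on log2(scaled TPM + 1) with limma 3.58.1 in R 4.3.3, with 1 mean per stage, a mean-variance trend, 12 residual degrees of freedom and Benjamini-Hochberg adjustment, after the fit had been tested on simulated data. In the peak lists, per the file headers, each peak has a fold enrichment (ratio) and a p-value from the authors' caller. Whether replicates were pooled before calling is not stated. Of the peak junctions 80.8% to 91.0% fell on RefSeq introns of Sscrofa11.1.

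Same-numbered libraries of different stages showed little shared deviation (mean r 0.01 over 45 pairs, range -0.12 to 0.10), so the main fit did not pair libraries by replicate number. Named genes were the members, up to 2 genes per direction and role group with the largest called change from E33 to E95, and the 3 genes most correlated with each member. Alternatives covered scaling, pseudocounts of 0.1 and 5, filters, each library left out, the replicate number as a block, and peak thresholds and overlap. The summed level of the Schwann cell markers is not reported here.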

Additional observations from a re-analysis of the deposited data

How the results depend on the processing

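Scaling weighed most. With TPM as deposited the members called were 1 in E40 against E33, 0 in E50 against E40 and in E95 against E70 (limma, 1 and 3 at an unadjusted p under 0.05), and 3 by the F test. Of the 48 log2 changes of members, 10 turned sign as deposited, 6 with both of the most abundant genes left out and 1 with quantile normalization. Those called after scaling were JAM2 in E95 against E33, at -0.47 as deposited and -0.085 when TPM were rescaled with both of the most abundant genes left out, and ITGB1 in E40 against E33, at -0.34 as deposited. The members called in E50 against E40 were also 0 with a filter at a mean of 5 TPM, where CDH2 was not among the genes tested, without E40 replicate 2 and E50 replicate 3, and with the libraries of both stages alone. Leaving out 1 library at a time gave 4 to 8 members by the F test, 2 to 4 in E40 against E33, 0 to 1 in E50 against E40, 2 to 5 in E95 against E70 and 4 to 7 in E95 against E33. In E95 against E70 the count was 2 without E70 replicate 3 or E95 replicate 2, and by the F test it was 4 without E40 replicate 3 or E70 replicate 3. With 1 library left out, the E95 minus E33 difference of the log2 ratio MYMK to CDH15 ranged from -0.30 to 0.077.

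Over all genes the counts were, in the order of the 5 steps, 2736, 200, 107, 242 and 1767 after scaling and 649, 1, 8, 11 and 38 as deposited, and the F test gave 6271 and 2680. With both of the most abundant genes left out before rescaling, the E50 and E70 steps gave 105 and 370. Of these, 48 were higher and 322 lower at E70, against 166 and 76 after scaling, and from E70 to E95 293 were higher and 2150 lower, against 802 and 965. With the libraries of both stages alone the steps gave 1733, 10, 10, 45 and 1010, and with a mean of at least 5 TPM they gave 1782, 129, 66 and 157 for the first 4, 3940 for E95 against E33 and 3948 for the F test. Without E40 replicate 2 and E50 replicate 3 the E50 and E60 steps gave 37 and 70. Single libraries left out moved the 5 steps between 1599 and 3172, 64 and 382, 47 and 124, 101 and 286, and 1228 and 1897. They moved E95 against E33 between 5345 and 6321 genes and the F test between 5451 and 6602. The replicate block gave 127 genes in E50 against E40 and 6044 in E95 against E33. It called 7 members in E95 against E33, with CDH15 added (adjusted p 0.0354), and changed no other member's call. For 9 of the 18 libraries the mean correlation with libraries of other stages was highest for their own replicate number.

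Members with a peak at or above their list's median fold were 1 at E33, 2 at E40 and 1 at E50. They were 2 at E60, 2 at E70, 1 at E95 and 0 in either PK15 list. Sites in all 6 stages were then 0. No share of all genes at this threshold is given here for comparison. Requiring the wider overlap left 14 sites and 4 in all 6 stages. Fewer genes tested and fewer libraries are part of several of these alternatives, and beyond that the cause was not tested.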
